A study of Mus musculus with 14 samples.

Results

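The 36 genes described here act in the cell's response to DNA damage, and they were chosen by name as a set of DNA damage and repair genes. All rows of a merged list of open chromatin that name one of them as the nearest gene were taken, which gave 100 of 92842 peaks for 34 of the 19105 genes named in the list. For Brca1 and Chek2 the list holds no row. The 8 genes of non-homologous end joining (Xrcc5, Xrcc6, Prkdc, Dclre1c, Xrcc4, Lig4, Nhej1 and Trp53bp1) were set against the other 28. Those 28 comprise 8 genes of damage signalling, 3 of the MRN complex, 3 of homologous recombination, 3 of the Fanconi pathway, 6 of base excision and nick ligation, 2 of mismatch repair and 3 of nucleotide excision.

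The chromatin came from wild-type C57BL/6 mice aged 8 to 12 weeks. Antibody-stained cells were sorted into 7 populations with 2 ATAC-seq libraries each: MPP (multipotent), CMP (myeloid), CLP (lymphoid), GMP (granulocyte and macrophage) and MEP (megakaryocyte and erythroid) progenitors and ProB cells, all taken from bone marrow, and thymic ProT cells. Whether the libraries of a population came from separate animals is not given in the labels. In ATAC-seq the Tn5 transposase inserts sequencing adapters where DNA is accessible. The list pools the peaks of the 14 libraries, each peak 499 bp wide, and carries no value for a library or a cell type. A listed peak was open in at least some of these cells, and neither how strongly nor in which of them can be read from it. Depth is unknown, there are no replicates of any value, no test was made, and every spread below is over genes.

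DNA ends arise in every dividing cell, and developing B and T cells also make them on purpose when they assemble their antigen receptor genes by V(D)J recombination. Non-homologous end joining rejoins such ends directly: the Ku proteins bind the ends and recruit DNA-PKcs, Artemis opens the hairpins, and a complex of XRCC4, XLF and DNA ligase IV seals the break. Homologous recombination instead copies an intact sister chromatid, while the excision pathways and mismatch repair replace damaged or mispaired bases on a single strand.

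All 36 genes had an open site at a transcription start site (TSS). The list gave a peak within 1000 bp of the TSS to 28 of the 36 genes (77.8%, exact 95% interval 60.8 to 89.9%), against 58.2% of 20838 protein-coding genes that could be placed on the genome. For the remaining 8 (22.2%) a peak centre lay within 1000 bp of a start in the RefSeq gene table but was listed under a neighbouring gene. Of all coding genes, 6.16% had a peak at such a start and none of their own within 1000 bp of the listed TSS. Among the 13135 coding genes with a peak at a start, the share was 9.77%. Neither share was checked for the name the peak was listed under. Counted by position, whichever gene the list names, 36 of 36 genes (100%, exact 95% interval 90.3 to 100%) had an open start, against 63.0% of all coding genes. These intervals cover counting error over genes only. The 8 were Prkdc, Xrcc4 and Nhej1 of end joining, and Brca1, Chek2, Fancd2, Lig1 and Pms2 of the other pathways. By the list's own naming 5 of 8 end-joining genes (62.5%) and 23 of the other 28 (82.1%) had a promoter peak, and by position 8 of 8 and 28 of 28 did. The lower share of end-joining genes by name was thus absent by position. For Nhej1 the open start was that of RefSeq. From the different start that the list uses, its only listed peak was 29.6 kb away.

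**Figure D1:**
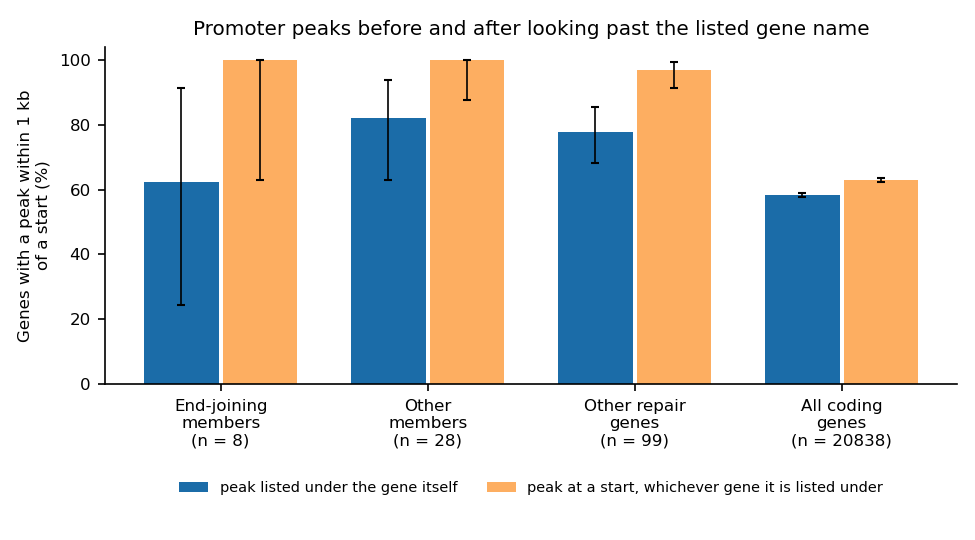
Share of genes in percent with a peak within 1 kb of a start, by the gene that the list names (dark bars) and by position alone (light bars), with exact 95% intervals, for end-joining members, other members, 99 other repair genes with a placed start and all 20838 placed coding genes. By name the shares are 62.5%, 82.1%, 77.8% and 58.2%, and by position 100%, 100%, 97.0% and 63.0%.

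Many of these genes start back to back with a neighbour. In 17 of 36 (47.2%, exact 95% interval 30.4 to 64.5%) a TSS lay within 1000 bp of the TSS of a gene on the opposite strand, against 16.6% of all coding genes. Counting coding partners alone, the numbers were 16 of 36 (44.4%) and 9.81%. Open starts are more often paired in general: of the 13135 coding genes with a peak at a start, 23.3% were head to head with any gene and 14.8% with a coding one. The distance between the closest paired starts of the 17 genes ran from 2 to 694 bp with a median of 105 bp, and it was under 200 bp in 15. Prkdc, Fancd2 and Xpc had no promoter window and were placed at their gene boundary. From the start that the list itself uses, the distance was 466 bp in place of 44 bp for Prkdc, 44 bp in place of 2 bp for Fancd2 and 544 bp in place of 105 bp for Lig1. Lig4 and Xrcc1 were paired by their RefSeq starts only. From the starts that the list uses, neither had a partner within 1000 bp. In 15 of the pairs a single peak covered both starts, and the list gave it to the repair gene in 7 and to the partner in 8. From the starts of the list, no peak covered both starts of Prkdc or of Lig1 and their partners. A promoter peak was listed for 10 of the 17 paired genes (58.8%) and for 18 of the 19 unpaired ones (94.7%). A like split was found for open starts in general: of the coding genes with a peak at a start, 68.4% of paired and 96.9% of unpaired ones had it. Over all coding genes, open at a start or not, the shares were 61.5% of paired and 57.6% of unpaired genes. By the closest starts, end-joining genes and the others were paired about equally often, 4 of 8 and 13 of 28.

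**Figure D2:**
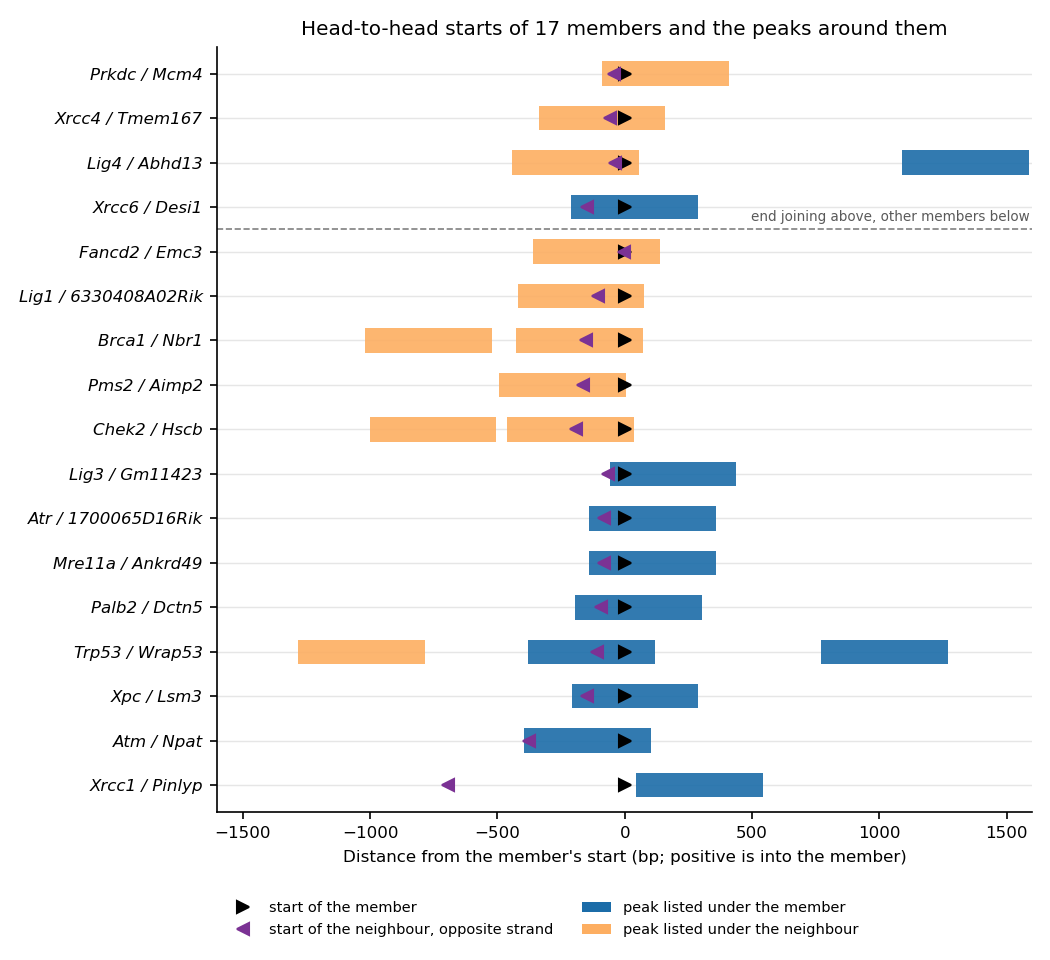
Starts and peaks of the 17 members with a head-to-head neighbour, in bp from the member's start closest to the neighbour's (for Prkdc and Fancd2 the gene boundary) and positive into the member; arrowheads mark the 2 starts and bars the peaks, dark where listed under the member and light where listed under the neighbour. By these starts, a single bar covers both in 15 of the 17 pairs, and in 8 of those it is listed under the neighbour.

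By the closest starts, the shortest distances were 2 bp between Fancd2 and Emc3, 37 bp between Lig4 and Abhd13, 44 bp between Prkdc and Mcm4 and 59 bp between Xrcc4 and Tmem167. Mcm4 encodes a subunit of the replicative helicase, so the DNA-PKcs gene starts beside a replication gene. Fancd2, whose protein is ubiquitinated at stalled forks, starts beside a gene of a membrane protein insertion complex. Lig3 lay 67 bp from the lncRNA gene Gm11423 and Atr 80 bp from 1700065D16Rik. Mre11a lay 81 bp from Ankrd49, Palb2 95 bp from Dctn5, and Lig1 105 bp from 6330408A02Rik. Trp53, the p53 gene, lay 109 bp from Wrap53, which encodes a protein of telomerase assembly. Xpc was 147 bp from Lsm3, a gene of RNA processing, Xrcc6 149 bp from Desi1, and Brca1 152 bp from Nbr1, an autophagy receptor gene. Pms2 was 162 bp from Aimp2, Chek2 190 bp from Hscb, Atm 376 bp from Npat and Xrcc1 694 bp from Pinlyp. Npat encodes an activator of histone genes.

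The sequences between such starts are shown because 1 open region lies over both genes and the name in the list hides it for some of them. They are from the RefSeq promoter table (GRCm38.p6, the assembly of mm10), which held 34 windows for 30 of the 36 genes, and they run 5′ to 3′ on the strand of the repair gene, from the partner's start to its own. Capitals mark 1 of 8 motifs on either strand, namely CCAAT (bound by NF-Y), GGGCGG (by Sp factors), CCGGAAGT (by ETS factors), TGACGTCA (by CREB), TTTCCCGC and TTTGGCGC (by E2F), CATGCGC (part of the NRF1 site) and AAGATGG (part of the YY1 site). Of the 9 stretches below, the first 3 are from end-joining genes.
Xrcc6 from Desi1, chr15:82016221-82016368, plus strand: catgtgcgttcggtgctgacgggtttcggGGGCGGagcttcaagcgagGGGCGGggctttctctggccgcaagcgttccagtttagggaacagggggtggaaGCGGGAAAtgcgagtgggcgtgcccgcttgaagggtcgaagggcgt
Xrcc4 from Tmem167, chr13:90089609-90089666, minus strand: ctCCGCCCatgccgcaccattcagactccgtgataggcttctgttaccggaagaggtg
Lig4 from Abhd13, chr8:9977681-9977716, minus strand: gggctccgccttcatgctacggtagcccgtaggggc
Brca1 from Nbr1, chr11:101551956-101552106, minus strand: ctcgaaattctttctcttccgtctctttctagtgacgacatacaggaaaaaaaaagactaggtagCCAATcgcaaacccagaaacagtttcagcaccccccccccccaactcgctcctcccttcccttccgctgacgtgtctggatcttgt
Chek2 from Hscb, chr5:110839794-110839982, plus strand: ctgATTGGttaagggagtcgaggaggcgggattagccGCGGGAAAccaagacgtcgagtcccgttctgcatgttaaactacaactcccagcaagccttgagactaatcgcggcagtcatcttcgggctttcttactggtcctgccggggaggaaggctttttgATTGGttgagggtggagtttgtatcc
Lig1 from 6330408A02Rik, chr7:13278722-13278825, plus strand: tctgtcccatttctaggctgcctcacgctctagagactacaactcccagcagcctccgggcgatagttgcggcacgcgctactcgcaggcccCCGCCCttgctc
Pms2 from Aimp2, chr5:143909840-143910000, plus strand: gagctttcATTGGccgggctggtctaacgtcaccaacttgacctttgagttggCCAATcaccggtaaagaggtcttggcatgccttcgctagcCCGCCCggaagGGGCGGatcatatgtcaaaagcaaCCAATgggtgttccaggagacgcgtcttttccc
Mre11a from Ankrd49, chr9:14784574-14784653, plus strand: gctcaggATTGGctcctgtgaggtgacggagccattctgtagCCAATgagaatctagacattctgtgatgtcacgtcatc
Trp53 from Wrap53, chr11:69580251-69580358, plus strand: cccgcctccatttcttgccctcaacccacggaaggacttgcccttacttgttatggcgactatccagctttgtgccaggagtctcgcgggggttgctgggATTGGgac

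CCAAT occurred in the printed stretches of Brca1, Chek2, Pms2, Mre11a and Trp53 and in none of the 3 of end joining. It was also absent from the stretches of Atr, Palb2, Lig3, Xpc and Fancd2, which are not printed. The Xrcc4 and Lig4 stretches are only 58 and 36 bp long, and the longer promoter window of Xrcc6 did hold this motif. The printed stretches thus do not separate end joining from the other pathways by it. GGGCGG occurred in the printed stretches of Xrcc6, Xrcc4, Lig1 and Pms2, and in the unprinted ones of Atr, Palb2 and Xpc. TTTCCCGC occurred in those of Xrcc6 and Chek2, and no motif occurred in the 36 bp of Lig4. The Chek2 and Lig1 stretches shared the word actacaactcccagca, 16 bases long, which was in 9 of the 21263 promoter windows of coding genes (0.0423%). This word was looked for after the stretches had been seen, as the longest run shared by any of 14 such stretches. A motif match is a description of letters and not of binding.

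Ku binds the broken end first, and both of its genes had an open promoter and further sites inside the gene. Xrcc5, which encodes Ku80, had 3 peaks: 1 at -119 bp from the TSS (chr1:72307053-72307551), and the others 13.6 kb and 52.2 kb downstream in introns 6 and 16 of 20. The peak in intron 6 lay in an Lx8 LINE. Xrcc6, which encodes Ku70, had 4 peaks, at 39 bp (chr15:82016159-82016657), 5.81 kb, 6.37 kb and 11.5 kb. Its 3 inner peaks were in introns 3, 4 and 7 of 12. The Xrcc6 promoter peak covered the Desi1 start as well and was listed under Xrcc6.

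Prkdc, which encodes the kinase DNA-PKcs, was listed with 3 peaks and none of them near its start. From the start that the list uses they were 83.2 kb, 91.9 kb and 101 kb downstream, in introns 39, 42 and 49 of 85. The peak at chr16:15637356-15637854, listed under Mcm4, was centred 261 bp upstream of that start and ended short of it. From the gene boundary in RefSeq, its centre was 161 bp inside Prkdc. Dclre1c, the gene of the hairpin-opening nuclease Artemis, had 2 peaks, at -132 bp (chr2:3423750-3424248) and 7.01 kb.

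Of the ligation complex, 1 gene, Xrcc4, held the longest and most scattered set of sites. Xrcc4, whose protein holds ligase IV, had 9 peaks, more than any other of the 36 genes, and all lay from 27.5 to 160 kb inside its 241 kb gene. The peak nearest to the start was in exon 3 of 8, and 5 were in intron 3 at 31.7, 32.7, 37.7, 79.6 and 82.1 kb. The others were in intron 6 at 114 and 121 kb and in intron 7 at 160 kb. Of those in intron 3, 1 each lay in a Charlie24 DNA transposon, an RLTR18-int element and an MTEb element, the last 2 of them LTR elements. Its start was covered by a peak at chr13:90089448-90089946, centred 89 bp upstream and listed under Tmem167. By position the Xrcc4 gene held 4.57 peaks per 100 kb, against 5.21 over all coding genes.

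Lig4, the gene of DNA ligase IV, had 4 peaks. Those at -18 and 857 bp (chr8:9976092-9976590 and chr8:9975217-9975715) were at the inner of its 2 starts, at position 9976311 of chromosome 8. A further peak (chr8:9977625-9978123) covered the outer start at position 9977680 and was listed under Abhd13. Both remaining Lig4 peaks were intergenic, 41.0 kb and 64.0 kb beyond the start, past the end of a gene of 7.66 kb. Lig4 was therefore open at both starts, with only 1 of them under its own name.

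Nhej1, which encodes XLF, had 1 listed peak, 29.6 kb away in intron 2 of 4. Its RefSeq start is at position 75125226 of chromosome 1, and the peak at chr1:75124697-75125195 was centred 280 bp inside the gene. The list gave that peak to Slc23a3, 8944 bp from the TSS it uses, so the list measured Nhej1 from another start. Nhej1 is the only one of the 8 genes without a promoter peak of its own that has no head-to-head partner. Trp53bp1, whose protein 53BP1 shields ends from resection and favours joining, had 3 peaks, at -4.73 kb, at 49 bp (chr2:121271109-121271607) and at 35.6 kb in exon 12 of 28.

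**Figure D3:**
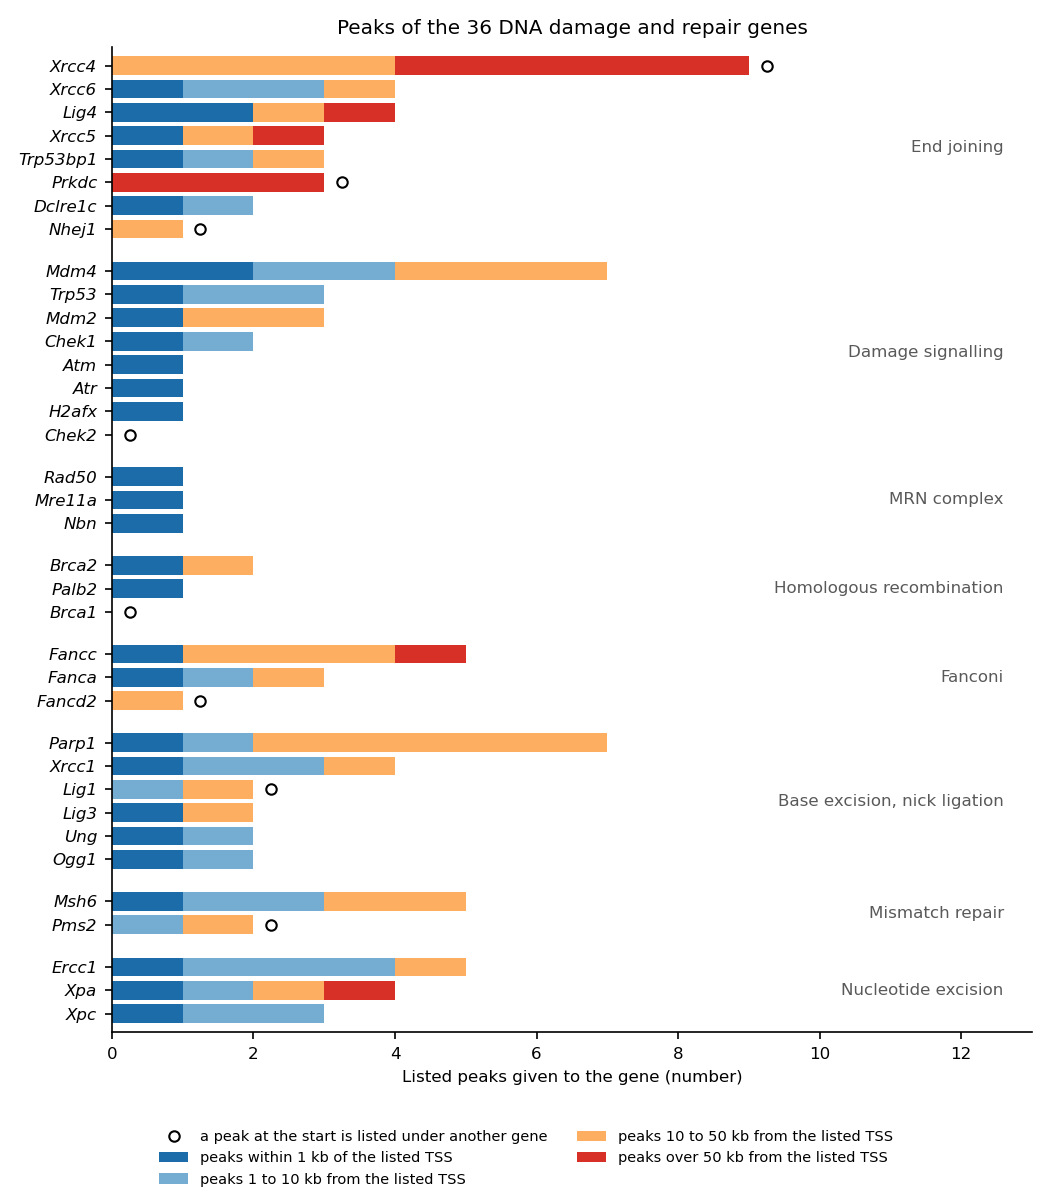
Number of listed peaks for each of the 36 genes, stacked by distance from the listed TSS, with end-joining genes at the top and the other members below by pathway; a circle marks the 8 genes whose start peak is listed under another gene only. Xrcc4 has 9 peaks, all beyond 10 kb, and Brca1 and Chek2 have 0.

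End-joining genes had slightly more peaks per gene than the other members when no limit was set on distance, and their peaks lay farther from the start. They held 29 peaks with a median of 3 and a mean of 3.62 ± 2.39 per gene (SD over 8 genes), against 71 peaks with a median of 2 and a mean of 2.54 ± 1.90 in the other 28. Over all coding genes the median was 2 and the mean 3.84 ± 5.14, so the means of both groups lay below it. The excess of end-joining genes in the mean rested on far peaks: within 50 kb the means were 2.38 and 2.46, with 2.92 over all coding genes, and within 10 kb they were 1.25 and 1.61, with 1.49. At least 1 peak was listed for 34 of the 36 genes (94.4%), against 78.9% of all coding genes. Beyond 50 kb lay 10 of 29 end-joining peaks (34.5%) and 2 of 71 others (2.82%), against 24.0% of the peaks of all coding genes. Of those 10, 5 belonged to Xrcc4, 3 to Prkdc and 1 each to Xrcc5 and Lig4, so 2 long genes held most of them. Within 1 kb lay 6 end-joining peaks (20.7%) and 24 others (33.8%), against 17.6% over all coding genes. These counts follow the list's naming, which gives all start peaks of 3 end-joining genes and 5 other members to neighbours.

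The position relative to the start differed too. More than 1 kb downstream of the start lay 22 end-joining peaks (75.9%) and 31 others (43.7%), and more than 1 kb upstream 1 (3.45%) and 16 (22.5%), against 48.4% and 34.0% over all coding genes. The other members were thus near the downstream share of all coding genes, and both groups were below the upstream one. Introns held 19 of the end-joining peaks (65.5%) and 31 of the others (43.7%), and intergenic sequence 3 (10.3%) and 17 (23.9%), against 42.5% in introns and 37.6% in intergenic sequence over all coding genes. The median distance to the TSS was 31.7 kb for end-joining peaks and 6.37 kb for the others, with 16.9 kb over all coding genes. Xrcc4 alone held 9 of the 29 end-joining peaks, all of them 27.5 to 160 kb downstream. The peak at the median was 1 of these. The end-joining shares and median in this paragraph thus rest in large part on 1 gene. Gene length moved with these differences: the median was 94.5 kb in end-joining genes, 33.2 kb in the other members and 17.8 kb in all coding genes. Inside gene bodies, whichever gene was named, end-joining genes held 36 peaks, or 3.99 per 100 kb, the others 75, or 6.28, and all coding genes 5.21 per 100 kb. Per length, then, end-joining genes held fewer peaks than the other members. These counts include start peaks centred inside the gene, and such a peak adds more per length to a shorter gene. The part of gene length in the differences was not tested.

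**Figure D4:**
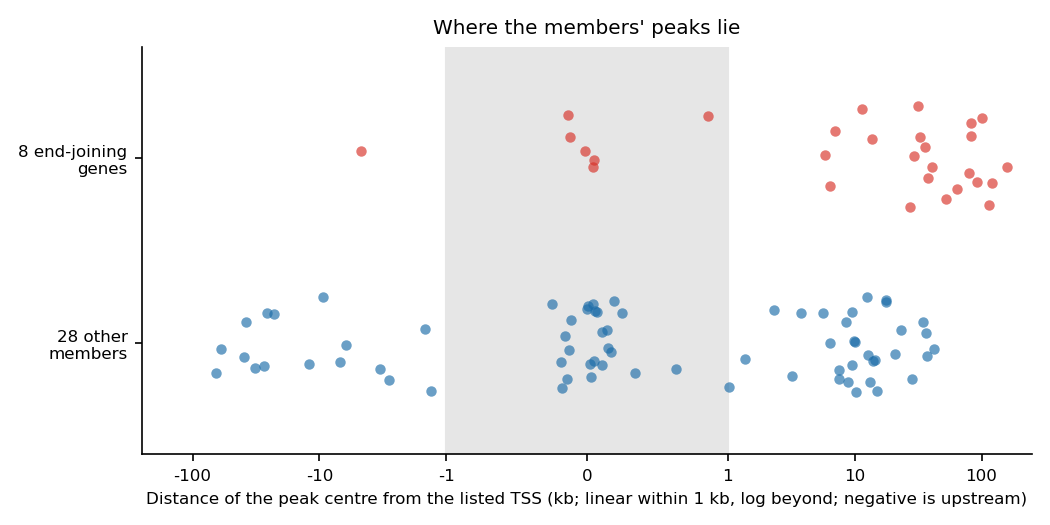
Distance of each peak centre from the listed TSS in kb, linear within 1 kb (grey) and log beyond, negative upstream, with 1 point per peak of the 8 end-joining genes (above, 29 peaks) and the 28 other members (below, 71 peaks); vertical scatter within a row has no meaning. End-joining peaks gather to the right of 1 kb (22 of 29) with 1 upstream, while 16 of 71 peaks of the other members lie upstream.

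The genes of damage signalling held 18 peaks with a median of 1.5 per gene. Mdm4, an inhibitor of p53, had 7, at -3.32 kb, 70 bp, 628 bp, 2.32 kb, 12.8 kb, 36.5 kb and 42.5 kb. Its peaks at 70 and 628 bp belonged to different starts, at positions 133025416 and 133030587 of chromosome 1. Trp53 itself had 3, at -130 bp, 1.02 kb and 5.62 kb. Mdm2, which encodes the ubiquitin ligase that degrades p53, had 3, at -112 bp, 13.1 kb in an ORR1A4 element, and 34.8 kb. The p53 inhibitors thus had listed sites well beyond the promoter. Of these, the Mdm2 peak at 34.8 kb and the Mdm4 peak at 42.5 kb lay past the end of the gene. Under their own names Atm and Atr, which sense breaks and stalled forks, had 1 promoter peak each, at -145 bp and 109 bp. By position, 5 peaks lay inside Mdm4, 1 inside Mdm2, 1 inside Atm and 2 inside Atr, so the contrast in part follows the list's naming. Chek1, the checkpoint kinase that ATR activates, had 2, at 7 bp and 9.90 kb. H2afx, the gene of the histone phosphorylated at breaks, had 1 at 18 bp.

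Chek2, the checkpoint kinase downstream of ATM, had no peak under its name. Peaks at chr5:110839521-110840019 and chr5:110838981-110839479 were centred 213 and 753 bp upstream of its start and were listed under Hscb, an iron-sulfur cluster chaperone gene. Of homologous recombination, Brca1 likewise had no peak under its name. Peaks at chr11:101551884-101552382 and chr11:101552476-101552974 were centred 178 and 770 bp upstream of it and were listed under Nbr1. In both cases the nearer peak lay over the printed stretch between the paired starts, and inside the Brca1 and Chek2 genes no peak centre was found.

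The MRN complex, which binds ends and activates ATM, had 1 peak per gene, at 148 bp for Rad50, 109 bp for Mre11a and 245 bp for Nbn. Palb2, which links BRCA1 to BRCA2, had 1 at 53 bp. Brca2, whose protein acts in strand exchange, had 2, at 141 bp and 17.6 kb in exon 11 of 27. Under their own names the 6 genes of MRN and homologous recombination thus had 1 peak outside the promoter, that in Brca2. By position the MRN genes held more, 3 peaks each inside Rad50 and Nbn and 2 inside Mre11a, or 5.51 per 100 kb, against 5.21 over all coding genes.

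The Fanconi genes, which act on crosslinks between strands, had 9 peaks. Fancc had 5 of them, at -65.6 kb, 342 bp, 10.3 kb, 20.6 kb and 37.0 kb, in a gene of 196 kb that held 14 peaks of any name. The Fancc peak at -65.6 kb from the listed TSS covered the outer RefSeq boundary of the gene, at position 63497292 of chromosome 13. Fanca had 3, at -1.31 kb in a B2 SINE, at -3 bp and at 28.2 kb. Both encode parts of the core complex that ubiquitinates FANCD2. Fancd2 had 1 listed peak at 12.4 kb, and the peak at chr6:113531279-113531777, centred 112 bp upstream of its start, was listed under Emc3.

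Base excision and nick ligation had 19 peaks with a median of 2. Parp1, whose protein senses strand breaks, had 7, and 5 of them formed a row upstream at -38.9, -38.1, -32.1, -27.5 and -22.6 kb (chr1:180529789-180546579 from first to last), with the other 2 at 25 bp and 1.35 kb. The peaks at -32.1 and -22.6 kb lay in ORR1E and RLTR19 LTR elements. Xrcc1, a scaffold of this pathway, had 4, at -156 bp, 7.50 kb, 8.80 kb and 17.7 kb of the start that the list uses, which is not the RefSeq start. Lig1, the replicative ligase, had peaks at 9.54 and 23.0 kb, while that at chr7:13278405-13278903, 172 bp upstream of the nearest start, was listed under 6330408A02Rik. Lig3, the ligase that works with XRCC1, had peaks at 190 bp and 14.4 kb. Ung, which removes uracil, had peaks at -184 and 3196 bp, and Ogg1, which removes oxidised guanine, at -175 bp and 3.80 kb, the peak at 3.80 kb in an ORR1A4 element.

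In mismatch repair, Msh6, whose protein recognises mispairs, had 5 peaks, at -25.8 kb, -2.85 kb in an RLTR45 element, -246 bp, 8.47 kb in exon 3 of 10 and 10.0 kb in exon 4. Pms2, which nicks the strand to be replaced, had peaks at 7.57 and 15.0 kb, and that at chr5:143909509-143910007, centred 243 bp upstream of its start, was listed under Aimp2. In nucleotide excision, Ercc1, whose protein cuts 5′ of the lesion with XPF, had 5 peaks, at -12.1 kb, -9.28 kb in an ORR1D1 element, -6.82 kb, -1.46 kb and 170 bp. It was thus listed with 4 upstream sites and none inside the gene beyond the promoter. Xpa, which verifies the lesion, had 4, at -59.1 kb, -6.15 kb, 48 bp and 13.9 kb. Xpc, which finds the distortion, had 3, at 40 bp, 6.37 kb and 9.59 kb.

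The promoter peaks lay close to the listed TSS. Each was taken as the nearest peak and had to lie within 1000 bp, and no such spread over all coding genes is given here. Over the 28 genes with one of their own, the nearest peak centre ran from -246 to 342 bp around the listed TSS with a median of 32 bp, within 200 bp in 25, upstream in 11 and downstream in 17. Just inside the limit of 1000 bp were Lig4 at 857 bp, Mdm4 at 628 bp and Fancc at 342 bp, and just outside were Trp53 at 1020 bp, Fanca at -1315 bp and Parp1 at 1355 bp. Repeats held 7 of 29 end-joining peaks (24.1%) and 9 of 71 others (12.7%), against 15.8% over all coding genes. LTR elements held 2 and 6 of those peaks, on different genes: Xrcc4 in end joining, and Parp1, Mdm2, Ogg1, Msh6 and Ercc1 elsewhere.

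The promoters of these genes were rich in CpG. In windows from 250 bases before to 50 bases after the start, the median ratio of observed to expected CpG was 0.837 in 8 windows of 7 end-joining genes and 0.793 in 26 windows of 23 other members. Over 21263 windows of coding genes it was 0.567, and over the 12438 windows whose gene had a listed promoter peak 0.730. A ratio over 0.6, usual for CpG islands, was found in 5 of 8, 18 of 26 (69.2%), 47.6% and 65.9% of those windows. The groups of repair genes thus lay near other open promoters in this measure, and no CpG island calls were used. Windows of Rad50, Fancd2, H2afx, Prkdc, Nbn and Xpc were not used here.

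Each motif was searched on both strands of the same windows and counted on its own, so overlapping motifs each count. TTTCCCGC was in 4 of 34 windows of the repair genes (11.8%), those of Xrcc6, Chek2, Brca2 and Msh6, against 1.41% of all coding windows and 1.95% of those with an own promoter peak. CCGGAAGT was in 5 (14.7%), those of Dclre1c, Lig4, Ercc1, Ogg1 and Palb2, against 5.15% and 7.13%. CATGCGC, added to the search later, was in 6 (17.6%), those of Xrcc5, Lig4, Atm, Lig1, Ung and Xpa, against 4.80% and 6.36%. CCAAT was in 17 (50%), against 38.2% and 37.4%, and GGGCGG in 21 (61.8%), against 46.2% and 61.2%. TGACGTCA was in 1 (2.94%), that of Brca2, against 2.23% of all coding windows. TTTGGCGC was in 0 of 34, against 0.635% of all coding windows, and AAGATGG in 0 of 34, against 6.24%. The NRF1 palindrome was in 1 (2.94%) against 1.33%, and the full YY1 motif in 0 against 0.889%. By group, end joining had CCAAT in 3 of 8 windows and GGGCGG in 6 of 8, and the other members had them in 14 of 26 and 15 of 26. With 8 windows, such counts do not separate the groups.

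Further repair genes, 100 in 7 lists, also had open starts listed under neighbours. Together they had 316 peaks with a median of 2 and a mean of 3.16 per gene. The start of 1 gene, Ddb2, could not be placed. Of the other 99, 77 had a promoter peak under their own name (77.8%) and 96 had one by position (97.0%), against 58.2% and 63.0% of all coding genes. No peak was listed under the name of 13 of the 100 genes. For 12 of those 13 a peak lay at the start and was listed under a neighbour. In all, 21 had a peak at a RefSeq start and none of their own within 1000 bp of the listed TSS. Neil1 is among them, although the peak at its RefSeq start was its own, at -1343 bp from the listed TSS. Of the 99, 35 (35.4%) were head to head with another gene, against 16.6% of all coding genes.

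In the list of 15 further end-joining genes the median was 4 peaks. Poll, a gap-filling polymerase, had 11, Shld1, of the shieldin complex that acts with 53BP1, had 9, and Rif1, also an effector of 53BP1, had 6. Dntt, the template-free polymerase of V(D)J junctions, also had 6. The start of Shld2 was listed under Glud1, and Shld3, with no peak of its own, had its start peak under Trappc13. Of the 15, 13 had a promoter peak under their own name, against 5 of the 8 end-joining genes above. In signalling, all 16 had one, and Usp7, a deubiquitinase of p53 and MDM2, had 12 peaks, Hus1 of the 9-1-1 clamp 6 and the kinase gene Wee1 6.

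Among 22 genes of homologous recombination, Bard1, the partner of BRCA1, and Blm, a helicase, had 13 peaks each and Rad51b had 9, while Rpa3, Eme1 and Gen1 had none under their names. Their start peaks were listed under Umad1, Mrpl27 and Smc6. Among 11 Fanconi genes Ube2t, the conjugating enzyme for FANCD2, had 7, Fance, Fanci and Fancl 4 each, and Fancb none, with its start peak under Mospd2. Among 15 base excision genes Smug1 had 11, Neil3 5, and Mpg and Parp2 4 each, all but Parp2 being glycosylases, while Apex1, Mutyh and Tdg had none. The peaks at those starts were listed under Osgep, Toe1 and Gm9855.

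Of 3 mismatch repair genes, Mlh3 had 1 peak and Msh3 and Pms1 had none. The start of Pms1 lay 67 bp from that of Ormdl1, and the peak there was listed under Ormdl1. Among 18 nucleotide excision genes Rad23b, a partner of XPC, had 11, Ercc4, whose protein is the nuclease partner of ERCC1, had 7 and the helicase gene Ercc3 had 6. Gtf2h1 and Gtf2h5, of transcription factor TFIIH, had none, with start peaks under Hps5 and Serac1. Ddb2, which detects ultraviolet damage, had no peak under its name, and its start could not be placed, so an open start was not assessed; 1 peak lay inside the gene. Slx4, of homologous recombination, was the one gene of the 99 with a placed start that had no promoter peak by name or position, its nearest peak being at -2230 bp.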

How the data were processed

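Chromatin accessibility was read from 1 deposited file, a peak list merged over the 14 libraries. Per its header, the authors ran annotatePeaks on the mm10 genome. HOMER 4.10.2 is the tool in the submitters' processing notes. No aligner, peak caller or merging rule is named there, nor in the labels. Each row of the deposited list holds a peak's coordinates, class, nearest gene and the distance in bp to that gene's TSS. The deposited peak score was 0 throughout and went unused, and 0 columns hold values per library. The nearest gene need not be the one regulated, and with a fixed width the extent of an open region is lost.

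Members were matched by gene name, and 120 other genes in 8 lists by symbol or synonym. The members and lists were chosen with earlier results of these data known. TSSs came from the RefSeq promoter table (GRCm38.p6) or, for genes without a row, from the gene boundary on the strand recovered from the listed distances. That strand was right for 14082 of 14438 genes with a known one (97.5%), and 1062 of 21900 coding genes could not be placed. A promoter peak has its centre within 1000 bp of a TSS. Named were all end-joining members, the 6 members with the most peaks, members without a peak or a promoter peak, head-to-head pairs, and in other lists the 3 genes with the most peaks and those without one. Intervals are exact (Clopper-Pearson) at 95% and cover counting error only. The counting was checked on simulated data. Python 3.11.15, pandas 2.3.3, numpy 2.4.6, scipy 1.17.1 and matplotlib 3.10.9 were used. One neighbouring gene of a listed repair gene is not reported here.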

Additional observations from a re-analysis of the deposited data

How the results depend on the processing

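Within 10 kb of a TSS the 36 genes had 55 peaks, against 100 with no limit, and within 50 kb they had 88. The median of end-joining genes exceeded that of the other members by 1 peak, and by 0.5 within 50 kb and by 0.5 within 10 kb. The difference in means was 1.09 with no limit and turned round within 50 kb (-0.0893) and within 10 kb (-0.357), since the far peaks then drop out. The difference in medians was 1 without Trp53bp1 and 1.5 for peaks inside gene bodies whichever gene is named. The limited means and the gene-body count were chosen after seeing the data. The count of genes with a promoter peak was 28 within 500, 1000 and 2000 bp, and 36 by position. Head-to-head genes numbered 16 within 500 bp and 19 within 2000 bp, against 17. No paired analysis was possible because the merged list has no values per library, and leaving out a library was not possible for the same reason.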

Other observations

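A list of 20 p53 target genes stood beside the repair genes, and it was richer in peaks. These genes had 134 peaks with a median of 5.5 and a mean of 6.70 per gene, against a median of 2 in the 36 damage and repair genes and of 2 in all coding genes. Gadd45a, a stress-induced gene, and Plk2, a kinase gene, had 17 each, and Sesn1, a stress-induced regulator of mTORC1, and Btg2, which restrains proliferation, had 12 each. Cdkn1a, the gene of the cell cycle inhibitor p21, which was named after its value was seen, had 4. All 20 had a promoter peak under their own name, against 58.2% of all coding genes, and 4 (20.0%) were head to head with another gene, against 16.6%. The list was chosen with earlier results of these data known, and neither gene length nor expression was taken into account.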
